A study of Rattus norvegicus with 6 samples.

Results

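The immediate early genes examined were Egr1, Egr2, Egr3, Fos, Fosb, Fosl1, Fosl2, Jun, Junb and Ier2, which made up 10 of the 43035 features in the count table. They were found by gene name. In addition, 5 unannotated transcripts that the authors had added to the table overlapped Egr2, Fos, Fosl1, Fosl2 or Ier2 on the same strand. The set was chosen around Egr1 because the Egr1 counts were among the most clearly lowered in these libraries, so the Egr1 values are given as a description without a test. The other 9 genes were chosen by family, with earlier results of these data known. The question was whether Egr1 moved alone or with them. The RNA came from cardiomyocytes of Sprague-Dawley rats at postnatal day 1, isolated from the heart and kept in primary culture in medium with serum. The cells received either a scrambled siRNA (si-NC, 3 libraries) or an siRNA against DYRK1A (si-DYRK1A, 3 libraries), and were collected 48 h later. DYRK1A is a protein kinase, and an siRNA is a short RNA duplex that lowers the mRNA it matches. Both groups thus shared the strain, age, tissue and transfection, and differed in the siRNA.

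Immediate early genes are transcribed within minutes of a stimulus, without the need for new protein synthesis. Growth factors, stretch and serum reach them through kinases such as ERK. These kinases activate factors already present on the DNA, among them SRF, which binds the CArG box, with its ELK partners, and CREB. EGR1, EGR2, EGR3 and EGR4 are zinc finger transcription factors that bind a GC-rich site, and the NAB proteins bind them and repress their activity. FOS proteins pair with JUN proteins to form AP-1, while JUN proteins also pair among themselves. In cardiac muscle these genes are classic early markers of hypertrophic stimuli. The labels name no acute stimulus, and the cells were collected 48 h after transfection.

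The promoter of Egr1 is shown with those of 3 other genes that hold the CArG box, the letters that SRF binds. Egr2 is a member of the set and had 0 counts. Srf and Zfp36 were shown with their counts known, Srf being higher and Zfp36, like Egr1, lower in the si-DYRK1A libraries. The 250 bases before each start site are from RefSeq on the GRCr8 build, whereas the counts are on Rnor_6.0. They are given 5′ to 3′ on the strand of the gene, with the CArG boxes in capitals, for Egr1 (chr18:26736828-26737077, plus strand), Egr2 (chr20:21054442-21054691, minus strand), Srf (chr9:21923826-21924075, plus strand) and Zfp36 (chr1:92799109-92799358, minus strand).
Egr1: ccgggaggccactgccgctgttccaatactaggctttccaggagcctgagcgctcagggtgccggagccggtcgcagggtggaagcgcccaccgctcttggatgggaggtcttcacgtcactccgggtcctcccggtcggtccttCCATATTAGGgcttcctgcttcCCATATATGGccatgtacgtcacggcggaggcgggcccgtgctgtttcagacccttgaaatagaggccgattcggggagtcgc
Egr2: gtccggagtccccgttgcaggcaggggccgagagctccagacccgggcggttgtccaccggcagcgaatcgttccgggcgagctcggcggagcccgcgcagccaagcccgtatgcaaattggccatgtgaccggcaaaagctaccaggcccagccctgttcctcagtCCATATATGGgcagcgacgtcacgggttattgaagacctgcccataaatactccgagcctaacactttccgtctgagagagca
Srf: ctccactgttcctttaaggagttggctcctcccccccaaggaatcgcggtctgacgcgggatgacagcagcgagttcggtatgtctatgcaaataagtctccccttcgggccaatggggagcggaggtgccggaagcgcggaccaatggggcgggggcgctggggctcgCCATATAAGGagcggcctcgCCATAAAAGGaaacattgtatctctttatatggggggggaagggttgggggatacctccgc
Zfp36: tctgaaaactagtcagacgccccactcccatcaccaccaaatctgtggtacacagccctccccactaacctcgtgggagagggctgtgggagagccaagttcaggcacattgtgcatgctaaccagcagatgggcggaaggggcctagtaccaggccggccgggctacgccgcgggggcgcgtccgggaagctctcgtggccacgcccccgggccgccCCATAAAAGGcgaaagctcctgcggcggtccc

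Of the 10 genes, 7 had an entry in the promoter table, namely Egr1, Egr2, Fosb, Fosl1, Fosl2, Junb and Ier2. The CArG box was searched on both strands and was present in 2 of these 7, Egr1 and Egr2, compared with 1.497% of all 33469 promoters of the same length. Egr1 held 2 boxes, which began 105 and 83 bases before the start site. Only 7 of all promoters held 2 or more. Egr2 held 1 box, 83 bases before its start. Srf itself, which is known to be its own target, held 2 boxes at 81 and 61 bases, and Zfp36, which encodes an mRNA decay factor, held 1 at 32 bases. The full cyclic AMP response element TGACGTCA was present in 1.59% of all promoters and, of the 7 members, in Ier2 alone, 66 bases before the start. Only exact matches were counted, so partial or altered forms of this element, in Egr1 and Egr2 or elsewhere, were not searched. The AP-1 motif TGANTCA occurred in 6.34% of promoters and in none of the 7 members. The EGR motif GCGNGGGCG occurred in 4.29% of promoters, and among the members in Fosl2 alone, 249 bases before the start. No motif overlapped another in these genes. A match gives the letters only and does not show that a factor was bound.

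Each library held 10325074 to 11921772 counts. Libraries of one group were labelled as biological replicates, but the labels do not say whether they came from separate cell preparations, so that p-values measure the spread between these libraries. Libraries within a group differed by more than sampling noise, and none repeated another. The row of Dyrk1a held 7 counts in all 6 libraries. An unannotated transcript spanning it had 77.7 ± 3.22 CPM (counts scaled to library size, SD, n = 3) in si-NC and 82.4 ± 2.70 CPM (SD, n = 3) in si-DYRK1A libraries, with a log2 fold change of 0.08 (edgeR adjusted p = 0.374). The knockdown was thus not visible in these counts, which do not check the labels, and the direction of every difference below rests on the libraries labelled si-DYRK1A. Of the 10 cardiomyocyte markers, the rows of Tnni3, Myh6, Myh7 and Myl2 were listed at 0, and the summed level of the list was 20858 to 21811 CPM in si-NC and 23932 to 24955 CPM in si-DYRK1A libraries.

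Of the 10 genes, 8 had enough counts for a comparison, 5 in their own row and 3 (Fos, Fosl1 and Fosl2) in the overlapping unannotated transcript. With Egr1 included, 4 of the 8 were called lower in the si-DYRK1A libraries by the edgeR test (Egr1, Egr3, the Fos transcript and Jun). Among all 15513 features tested, 7.19% were called lower. None of the 8 was called higher, where the background was 8.03%. The same shares are the background for each gene list below. All 8 log2 fold changes were below 0, while the median over all features tested was 0.00. The 2 groups did not overlap for 5 of the 8 (the 4 called genes and Junb), compared with 31.5% of all features tested. The choice of Egr1 fixes its own part in these counts and leaves 3 of the remaining 7. Those genes were chosen by family, but with earlier results of these data known, so this count is a description.

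**Figure D1:**
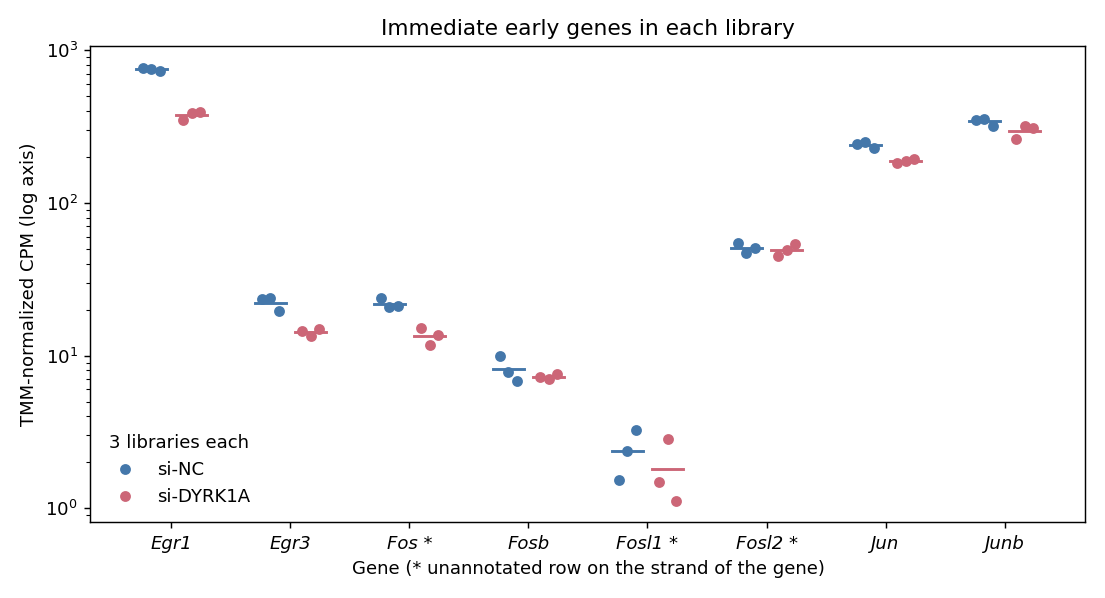
Level of each immediate early gene in each library, as normalized CPM on a log axis, for 3 si-NC and 3 si-DYRK1A libraries (points) with the group mean (line), where an asterisk marks a gene read from an unannotated transcript on its strand. The Egr1 points of si-DYRK1A lie well below those of si-NC, those of Egr3, the Fos transcript, Jun and Junb lie below by less, and those of Fosb, Fosl1 and Fosl2 overlap.

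Egr1 (ENSRNOG00000019422, Rnor_6.0 chromosome 18, 27657628 to 27661429, plus strand, protein coding) was the most abundant EGR gene by far. Its level was 765.9, 755.1 and 722.2 CPM in the si-NC libraries 1, 2 and 3, and 349.1, 386.5 and 390.6 CPM in the si-DYRK1A libraries. All 3 si-DYRK1A libraries were thus near the same low level, and the highest of them lay far under the lowest si-NC library. The means were 747.7 ± 22.8 CPM and 375.4 ± 22.9 CPM (SD, n = 3 each), a log2 fold change of -0.99 (standard error 0.0469, 95% confidence interval -1.09 to -0.90) or a ratio of 0.502 (0.469 to 0.537). These values rest on 3969 to 8929 counts per library. Among the 231 annotated features tested with a mean level at least that of Egr1, itself included, no other had a log2 fold change as low as that of Egr1, and none had one as high in the other direction. Over all levels, 119 of the 9707 annotated features tested had a log2 fold change at or below it. This ranking describes the gene that was chosen for its difference.

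Egr3 (ENSRNOG00000017828, chromosome 15, 51756736 to 51760722, plus strand), a close relative that is itself induced by the same stimuli, was much less abundant. It had 23.3, 23.7 and 19.6 CPM in the si-NC libraries and 14.5, 13.5 and 14.97 CPM in the si-DYRK1A libraries. The groups did not overlap, and the 3 si-DYRK1A libraries lay close together. Egr3 fell by 0.63 on the log2 scale (standard error 0.108, 95% confidence interval -0.86 to -0.41, edgeR adjusted p = 0.000281). Egr2, which is known for its role in myelin-forming cells and lymphocytes, had 0 counts in all 6 libraries both in its own row and in the unannotated transcript over it. Since the rows of widely or strongly expressed genes such as Myh6 and Creb1 were also listed at 0, also with covering unannotated transcripts added, a 0 in this table does not bound the level of a gene.

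Egr4 is the remaining EGR gene and was not among the 10. It had 2.78, 3.21 and 2.51 CPM in the si-NC libraries and 1.14, 1.41 and 1.21 CPM in the si-DYRK1A libraries, from 13 to 38 counts per library. The groups did not overlap and the log2 fold change was -1.18 (95% confidence interval -1.80 to -0.55, edgeR adjusted p = 0.00945), with a far wider interval than that of Egr1. DESeq2 gave Egr4 no adjusted p, and with log2(FPKM + 1) and no filter it had an adjusted p of 0.0613. Compared per length, as FPKM (fragments scaled to transcript length and library size), the summed level of the 4 EGR genes was 246.9 ± 7.95 in si-NC and 124.6 ± 7.26 in si-DYRK1A libraries (SD, n = 3 each). Egr1 held 95.9% to 96.5% of this sum in si-NC and 94.99% to 95.64% in si-DYRK1A libraries. Egr3 held 3.03% to 3.47% and 3.85% to 4.56%. The EGR sum was therefore the level of Egr1 in all libraries, and the shares describe a loss that was somewhat larger in Egr1 than in Egr3.

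Within each library, the log2 ratio of the Egr1 to the Egr3 CPM was 5.04, 5.00 and 5.20 in si-NC and 4.59, 4.84 and 4.71 in si-DYRK1A libraries. The ratio was thus lower in every si-DYRK1A library, by 0.37 on average, so that Egr1 was lowered by more than Egr3. For Jun the same ratio was 1.603 to 1.669 in si-NC and 0.95 to 1.05 in si-DYRK1A libraries, with a mean shift of -0.64. For Junb it moved by -0.78, for Fosb by -0.85 and for Fosl2 by -0.95, in each case without overlap of the groups. Against the Fos transcript the shift was -0.30 and the groups overlapped, with 5.02 to 5.18 in si-NC and 4.52 to 5.05 in si-DYRK1A libraries. Against Egr4 it was 0.18, also with overlap. No test was run on these ratios, because Egr1 was chosen from the same contrast.

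The NAB proteins, which hold EGR factors in check, were scarce. Nab2 had 5.27, 4.74 and 5.10 CPM in si-NC and 3.61, 3.01 and 5.63 CPM in si-DYRK1A libraries, with overlapping groups (log2 fold change -0.30, 95% confidence interval -0.77 to 0.17, edgeR adjusted p = 0.433). Nab1 had a log2 fold change of -0.25 on a mean level of 1.03 CPM in si-NC (95% confidence interval -1.19 to 0.69, adjusted p = 0.776), which turned to 0.028 without si-DYRK1A library 2. Wt1, a zinc finger factor that binds a site like that of EGR1 and marks epicardial cells in the heart, was at 24.6 ± 0.520 CPM in si-NC and 19.8 ± 0.659 CPM in si-DYRK1A libraries (log2 fold change -0.31, edgeR adjusted p = 0.0241). The Wt1 call was lost without si-NC library 1 (adjusted p = 0.0772), without si-DYRK1A library 1 (0.0779) without si-DYRK1A library 2 (0.0874), with DESeq2 (0.0973) and with log2(FPKM + 1) and no filter (0.0609). Of this list of 4 genes with Egr4, 2 were thus called lower and 0 higher, with a median log2 fold change of -0.30.

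The Fos row itself (ENSRNOG00000008015, chromosome 6, 109300433 to 109303299, plus strand) was listed at 0 in all 6 libraries. The counts at this locus were carried by an unannotated transcript with the same start that ran past the annotated end to 109303845 and covered no other annotated gene. It had 23.7, 20.8 and 21.0 CPM in the si-NC libraries and 15.2, 11.7 and 13.6 CPM in the si-DYRK1A libraries, from 124 to 251 counts per library. The groups did not overlap. The transcript fell by 0.69 on the log2 scale (standard error 0.114, 95% confidence interval -0.93 to -0.45, edgeR adjusted p = 0.000196), which placed its point estimate between those of Egr1 and Egr3.

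The other FOS genes gave no calls. Fosb (ENSRNOG00000046667, chromosome 1), which encodes a partner of the JUN proteins known to build up under repeated stimulation, had 9.88, 7.78 and 6.77 CPM in si-NC and 7.21, 7.06 and 7.53 CPM in si-DYRK1A libraries. Its groups overlapped (log2 fold change -0.16, 95% confidence interval -0.51 to 0.19, adjusted p = 0.599). Fosl2 and Fosl1 encode FRA2 and FRA1, FOS-related proteins that are induced later and last longer than FOS. The unannotated transcript over Fosl2 had 54.8, 47.1 and 50.3 CPM in si-NC and 44.7, 49.1 and 53.8 CPM in si-DYRK1A libraries. The 2 groups covered nearly the same range (log2 fold change -0.04, 95% confidence interval -0.21 to 0.12, adjusted p = 0.787), and the sign turned to 0.014 without si-NC library 1 and to 0.023 without si-DYRK1A library 1. The transcript over Fosl1 had 13 to 39 counts per library, 1.53, 2.37 and 3.26 CPM in si-NC and 1.495, 2.83 and 1.13 CPM in si-DYRK1A libraries. A difference of the size seen for Egr1 was within its interval of -1.17 to 0.33 (log2 fold change -0.42, edgeR adjusted p = 0.495), so that Fosl1 could not be resolved at these counts.

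Jun (ENSRNOG00000026293, chromosome 5, 114011189 to 114014277, minus strand), an intronless gene encoding the most potent activator among the JUN proteins, had 240.9, 248.6 and 227.8 CPM in the si-NC libraries. In the si-DYRK1A libraries it had 180.7, 186.6 and 192.7 CPM, all below the lowest si-NC library. Jun fell by 0.36 on the log2 scale (standard error 0.0474, 95% confidence interval -0.46 to -0.26, edgeR adjusted p = 1.64e-05). An unannotated transcript of the opposite strand overlapped the 5′ end of Jun by 166 bases. It had a log2 fold change of -0.10 (adjusted p = 0.378), and how reads of the overlap were divided is not known.

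Junb (ENSRNOG00000042838, chromosome 19, 26092974 to 26094756, minus strand) encodes a JUN protein of weaker activity that can oppose JUN. It had 350.0, 355.1 and 319.7 CPM in si-NC and 261.2, 315.8 and 307.4 CPM in si-DYRK1A libraries. The groups did not overlap, but the highest si-DYRK1A library came close to the lowest si-NC library. Its log2 fold change was -0.21 (95% confidence interval -0.37 to -0.06 for this gene alone, standard error 0.0697), and the adjusted p of 0.0681 missed the threshold of 0.05. Without si-DYRK1A library 2 the log2 fold change was -0.26 with an edgeR adjusted p of 0.0304, and DESeq2 gave an adjusted p of 0.0151. Junb therefore lay at the edge of what these libraries could call.

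Jund, the third JUN gene, is expressed constantly in most cells and responds little to serum, and it was examined with 13 other AP-1 and related bZIP genes. It had 328.0, 325.2 and 282.7 CPM in si-NC and 228.7, 253.2 and 273.8 CPM in si-DYRK1A libraries, without overlap (log2 fold change -0.31, 95% confidence interval -0.48 to -0.14, edgeR adjusted p = 0.0228). The call was lost without si-NC library 1 (adjusted p = 0.0571), si-NC library 2 (0.127) or si-DYRK1A library 2 (0.0822), and in the log2 FPKM fits (0.0825 to 0.147). Jdp2, which encodes a repressor that pairs with JUN, fell from 73.4 ± 4.71 to 55.4 ± 0.862 CPM (SD, n = 3 each, log2 fold change -0.41, adjusted p = 0.000134). Atf3, a stress-induced partner of JUN, was at 39.7 ± 1.44 and 36.8 ± 2.43 CPM (log2 fold change -0.11, adjusted p = 0.405). Of the 9 genes of this list that were tested, 2 were called lower and 0 higher, and the median log2 fold change was -0.11. With the counts of overlapping unannotated transcripts added, 11 were tested and Maf was called higher (log2 fold change 0.34, adjusted p = 0.00197).

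Per length, the summed FPKM of the 7 FOS and JUN genes was 495.2 ± 29.2 in si-NC and 411.1 ± 32.5 in si-DYRK1A libraries (SD, n = 3 each), a change of the means by -17.0%, compared with -49.5% for the EGR sum. Junb held 38.0% to 38.7% of the AP-1 sum in si-NC and 38.8% to 41.5% in si-DYRK1A libraries, Jund 36.3% to 37.8% and 35.3% to 37.1%, and Jun 15.1% to 15.9% and 14.1% to 15.5%. Fos held only 1.40% to 1.58% and 0.94% to 1.39%. The JUN genes were thus the main AP-1 transcripts in both groups, with Fosl2 (5.98% to 7.06% and 7.49% to 7.98%) as the most abundant FOS gene.

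Ier2, a small nuclear protein induced with Fos, was listed as a pseudogene at chromosome 19, 25774143 to 25775659, with 0 counts in all 6 libraries. The unannotated transcript over it held 13 counts in total, so that no comparison was possible for Ier2.

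**Figure D2:**
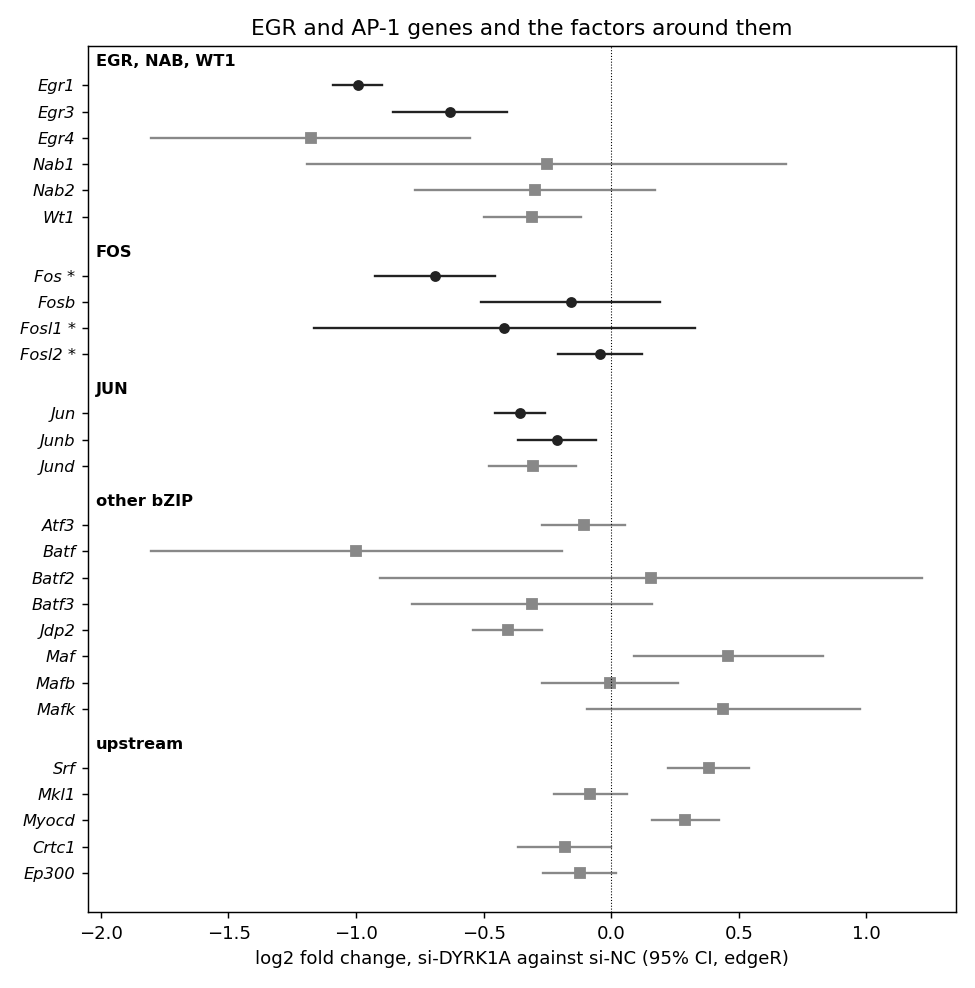
Log2 fold change of si-DYRK1A against si-NC with the 95% confidence interval of edgeR for each tested gene alone (black circles, members; grey squares, related genes; an asterisk marks an unannotated transcript). Most EGR, FOS and JUN points lie left of 0, that of Egr1 with a narrow interval at -0.99, whereas Srf at 0.38 and Myocd at 0.29 lie to the right.

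Of the factors that act upstream of these genes, Srf and Myocd were called higher and none was called lower. Srf, whose product binds the CArG boxes shown above, had 54.7, 54.5 and 53.7 CPM in the si-NC libraries and 60.8, 75.4 and 76.0 CPM in the si-DYRK1A libraries. All si-DYRK1A libraries were above all si-NC libraries, although library 1 was only slightly so. Srf rose by 0.38 on the log2 scale (standard error 0.0768, 95% confidence interval 0.22 to 0.54, edgeR adjusted p = 0.00161). Myocd, an SRF coactivator of cardiac and smooth muscle, rose from 75.5 ± 6.87 to 92.3 ± 2.31 CPM (log2 fold change 0.29, adjusted p = 0.00273). Both calls were lost in the 3 fits of log2 FPKM, with adjusted p of 0.0710 to 0.130 for Srf and 0.0752 to 0.135 for Myocd. Mkl1, an SRF coactivator that responds to actin, had a log2 fold change of -0.08 (adjusted p = 0.489, and 0.011 as its value without si-NC library 2), and the coactivators Crtc1 (-0.18, adjusted p = 0.181) and Ep300 (-0.12, adjusted p = 0.262) were not called either. Of the 5 genes tested in this list, 2 were called higher and 0 lower, and the median log2 fold change was -0.08. The ERK-responsive SRF partners Elk3 and Elk4 could be compared only with unannotated transcripts added and had log2 fold changes of 0.19 (adjusted p = 0.630) and -0.02 (adjusted p = 0.955) at 3.78 and 7.19 CPM in si-NC. On the same sums the CREB relative Atf1 had a log2 fold change of -0.73 (adjusted p = 0.0720) and the CREB coactivator Crtc3 one of -1.33 (adjusted p = 0.0643), from 20 to 49 and 9 to 50 counts per library. Crtc3 had 4.79, 1.52 and 1.67 CPM in si-NC and 0.79, 0.94 and 1.38 CPM in si-DYRK1A libraries, so much of its difference came from si-NC library 1. Neither Atf1 nor Crtc3 was called, although the groups did not overlap for either, and both were named after their values were seen. Messenger levels do not report the phosphorylation through which these factors are switched.

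A list of 51 other immediate early genes was read next, to see whether the class as a whole moved with Egr1. Of 37 that were tested in their own rows, 17 were called higher and 7 lower, with a median log2 fold change of 0.15. Among all features tested, 8.03% were called higher and 7.19% lower. The class therefore did not move in one direction. Gadd45g, a stress response gene of the GADD45 family, rose from 265.6 to 393.7 CPM (log2 fold change 0.57, edgeR adjusted p = 3.52e-08), and Tiparp, a target of the aryl hydrocarbon receptor, rose from 100.9 to 147.2 CPM (0.54, adjusted p = 1.56e-07). Ptgs2, the inducible cyclooxygenase, rose by 0.48 (adjusted p = 1.35e-05) and Ctgf, a matricellular protein and target of YAP and SRF, by 0.29 (adjusted p = 2.02e-05) on the log2 scale. Rhob, a small GTPase, fell from 506.7 to 371.3 CPM (log2 fold change -0.45, adjusted p = 5.66e-07), and Klf6, a zinc finger factor, from 127.9 to 98.3 CPM (-0.38, adjusted p = 1.36e-05). Zfp36, named here for its promoter after its values were seen, had 94.3, 101.2 and 96.1 CPM in si-NC and 69.1, 76.1 and 73.0 CPM in si-DYRK1A libraries and fell by 0.42 on the log2 scale (adjusted p = 2.35e-05). Of the 4 genes whose CArG boxes are printed above, Egr1 was lower by 0.99 and Zfp36 by 0.42, Srf was higher by 0.38, and Egr2 had no counts. These promoters were printed with the counts known, so the mixed directions follow from that choice. In all, 501 promoters held a CArG box, and the counts of the other genes with a box were not collected.

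Several well-known genes of this class were listed at 0 in their own rows, among them Dusp1, Klf2 and Socs3. When the counts of unannotated transcripts covering at least 50% of a gene and no other gene were added, 47 of the list could be tested, with 17 called higher, 9 lower and a median of 0.13. The 2 further genes called lower, named after their values were seen, were Klf2 and Socs3. Klf2, a zinc finger factor that shear stress induces in endothelium, had 18.6, 18.4 and 19.8 CPM in si-NC and 5.19, 5.74 and 6.40 CPM in si-DYRK1A libraries, from 59 to 237 counts. The groups were far apart, and Klf2 fell by 1.71 on the log2 scale (standard error 0.131, 95% confidence interval -1.99 to -1.44, edgeR adjusted p = 9.04e-09). Socs3, a feedback inhibitor of cytokine signalling through STAT3, had 90.5, 86.0 and 77.3 CPM in si-NC and 42.0, 49.8 and 51.0 CPM in si-DYRK1A libraries and fell by 0.83 (95% confidence interval -0.99 to -0.67, adjusted p = 3.74e-07). Both calls held with each library left out. Dusp1, an ERK and p38 phosphatase, had a log2 fold change of -0.03, Nr4a1, an orphan nuclear receptor, of 0.39, and Myc of 0.03, and none of them was called. Of these 47 genes, only Klf2 had a log2 fold change below that of Egr1.

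**Figure D3:**
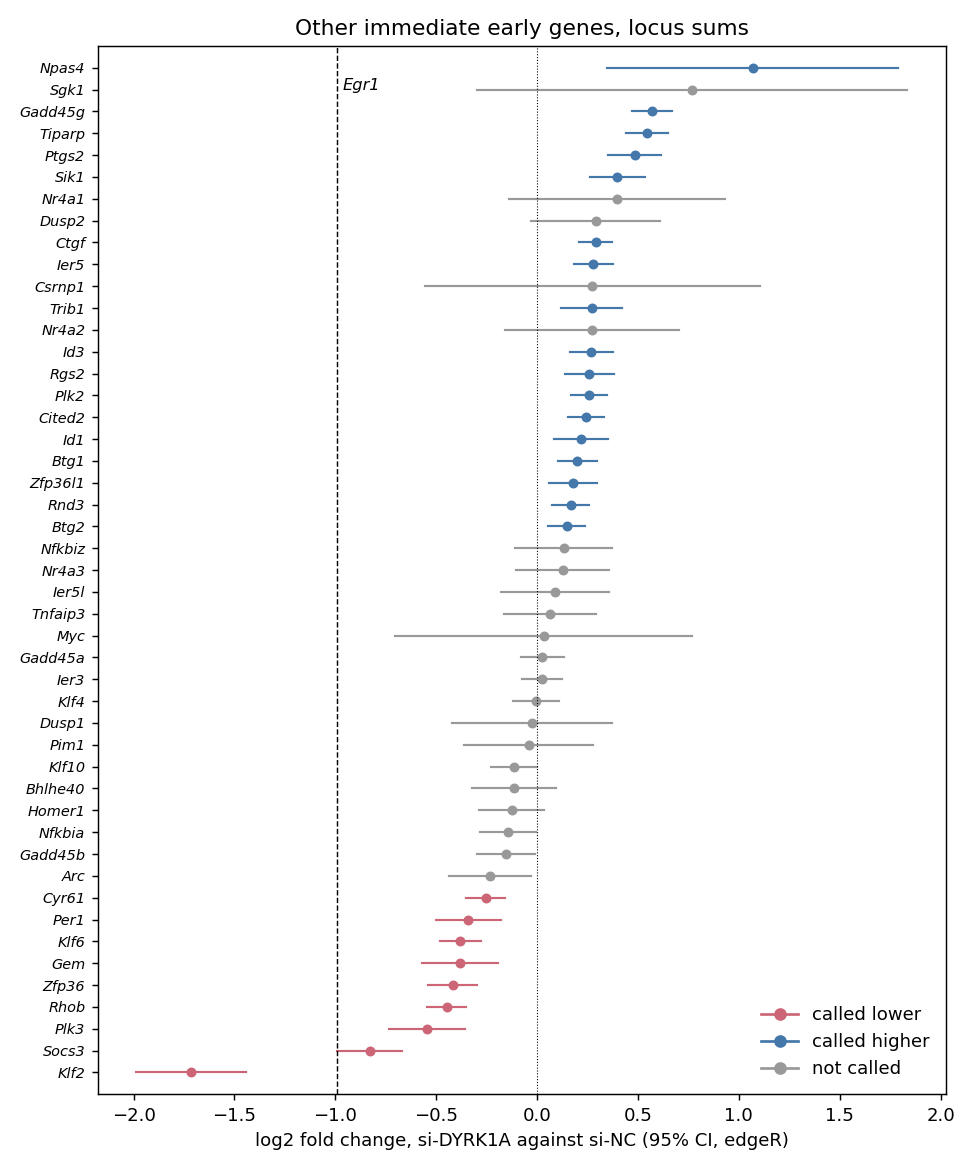
Log2 fold change with the 95% confidence interval of edgeR for 47 other immediate early genes, with the counts of covering unannotated transcripts added, sorted by value and coloured by the call at an adjusted p of 0.05. Of these, 17 were called higher, 9 lower and 21 not called, and the dashed line marks the log2 fold change of Egr1, which Klf2 alone passes.

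The ERK pathway induces its own inhibitors together with Egr1 and Fos, and these served as a further readout. Of 8 such genes tested, 1 was called higher and 1 lower, compared with 8.03% higher and 7.19% lower among all features tested. Spry4 had a log2 fold change of 0.20 (edgeR adjusted p = 0.00885, but 0.0604 without si-NC library 1 and 0.0637 without si-DYRK1A library 3). Dusp5 had one of -0.30 (adjusted p = 0.0165, but 0.0862 without si-NC library 2, 0.0644 without si-DYRK1A library 2 and 0.0632 without si-DYRK1A library 3). Dusp6, an ERK phosphatase, was at 19.2 ± 1.96 CPM in si-NC and 20.7 ± 2.68 CPM in si-DYRK1A libraries (log2 fold change 0.11, adjusted p = 0.596), and Dusp4 had a log2 fold change of -0.06 (adjusted p = 0.378).

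Genes that EGR1 is known to activate were described in the same way. Of 10 that were tested, 2 were called higher and 2 lower, with a median log2 fold change of -0.06. The background was 8.03% called higher and 7.19% lower. Icam1, a leukocyte adhesion molecule, fell from 256.4 to 181.5 CPM (log2 fold change -0.50, edgeR adjusted p = 6.71e-07), and Tgfb1 fell by 0.21 (adjusted p = 0.0131). The Tgfb1 call was lost without si-NC library 1 (adjusted p = 0.0881), si-DYRK1A library 1 (0.0852) or si-DYRK1A library 2 (0.0593). Igf2, a growth factor of the fetal and newborn heart, rose from 233.9 to 324.9 CPM (0.47, adjusted p = 1.62e-07), and F3, the tissue factor that starts clotting, rose by 0.25 (adjusted p = 0.00303, but 0.0525 to 0.0988 in the 3 log2 FPKM fits). With the counts of covering unannotated transcripts added, 13 were tested, with 3 called higher, 2 lower and a median of -0.05. The further gene called higher, named after its values were seen, was Thbs1. It rose from 1625 to 1964 CPM (log2 fold change 0.27, edgeR adjusted p = 4.59e-05). The targets as a list did not share the direction of Egr1.

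Of 14 AP-1 target genes tested, 5 were called higher and 3 lower, with a median log2 fold change of 0.15. Here and for the SRF targets below, the background was 8.03% called higher and 7.19% lower. When covering unannotated transcripts were added, 15 AP-1 targets were tested, with 6 called higher, 3 lower and a median of 0.13. Gja1, a gap junction protein, rose by 0.51 on the log2 scale (edgeR adjusted p = 3.32e-08), and Spp1, osteopontin, by 0.38 (adjusted p = 5.58e-07). Il6, the cytokine, rose from 9.17 to 16.1 CPM (log2 fold change 0.82, adjusted p = 6.30e-05), and Vim, an intermediate filament protein, by 0.23 (adjusted p = 0.000345). Mmp9, a matrix protease, fell by 0.34 (adjusted p = 0.00238, but 0.0637 to 0.118 in the 3 log2 FPKM fits). Among 13 cytoskeletal targets of SRF and MRTF, 4 were called higher and 2 lower, with a median log2 fold change of 0.00. With covering unannotated transcripts added, 17 were tested, with 6 called higher, 2 lower and a median of 0.15. The further genes called higher, named after their values were seen, were Fhl2 (0.31, edgeR adjusted p = 0.0379) and Zyx (0.20, adjusted p = 0.0407). Actn1, a crosslinker of actin, rose by 0.51 (adjusted p = 2.15e-08) and Vcl, a focal adhesion protein, by 0.26 (adjusted p = 0.000313), while the integrin Itga5 fell by 0.26 (adjusted p = 0.00104, but 0.0545 to 0.102 in the 3 log2 FPKM fits). Tpm4, a tropomyosin, rose by 0.16 (adjusted p = 0.00536, but 0.0594 without si-DYRK1A library 3). Smooth muscle actin Actg2 rose by 0.17 (adjusted p = 0.0208), a call lost without si-NC library 1 (0.0604), si-NC library 3 (0.0768) or si-DYRK1A library 3 (0.159). Cytoplasmic actin Actb fell by 0.18 (adjusted p = 0.0179), a call lost without si-NC library 2 (0.0520), si-DYRK1A library 1 (0.1) or si-DYRK1A library 2 (0.0864).

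Other cell types of the heart can remain in such cultures, and in bulk RNA fewer cells of a type and less RNA per cell cannot be told apart. Some endothelial markers were lower beside Egr1, Klf2 and Icam1. Of 6 tested, 3 were called lower and 0 higher, with a median log2 fold change of -0.37, a summed level of 169.7 to 188.5 CPM in si-NC and 137.8 to 143.7 CPM in si-DYRK1A libraries, and no marker at 0. For all marker lists, the background was 7.19% called lower and 8.03% higher. Tek, the angiopoietin receptor, fell by 0.75 (edgeR adjusted p = 3.50e-07), Tie1 by 0.43 (adjusted p = 0.00125) and Cdh5, the endothelial cadherin, by 0.31 (adjusted p = 0.0129). The Cdh5 call was lost without si-NC library 1 (adjusted p = 0.0531), si-DYRK1A library 1 (0.0606) or si-DYRK1A library 3 (0.0668). The other 3 were not called, namely Vwf with a log2 fold change of -0.53 (adjusted p = 0.0719), Kdr with -0.01 (adjusted p = 0.954) and Emcn with 0.04 (adjusted p = 0.922). Of 6 fibroblast markers tested, 2 were called higher (Lum 0.59, adjusted p = 1.21e-08; Postn 1.10, adjusted p = 2.39e-05) and 0 lower, Pdgfra was listed at 0, and the summed level was 21531 to 26245 CPM in si-NC and 20368 to 21107 CPM in si-DYRK1A libraries. With covering unannotated transcripts added, 7 were tested, with 3 called higher and 0 lower. The further one, named after its values were seen, was Dcn (0.44, edgeR adjusted p = 0.0397). Not called were Col1a1 (-0.37, adjusted p = 0.0869), Col3a1 (0.02, 0.808), Tcf21 (0.14, 0.124) and Thy1 (0.48, 0.0524). Col1a1, the most abundant, was at 14341.5 CPM in si-NC and 11113.1 CPM in si-DYRK1A libraries, without overlap of the groups. Of 6 macrophage markers tested, 1 was called higher (Lyz2 0.41, adjusted p = 0.000178) and 0 lower, with a median log2 fold change of -0.03. Cd68 was listed at 0, and the summed level was 220.9 to 227.2 CPM in si-NC and 226.3 to 255.4 CPM in si-DYRK1A libraries. Lyz2 itself rose from 88.8 to 117.8 CPM. The other 5 were not called, with covering unannotated transcripts added. They were Adgre1 (-0.54, edgeR adjusted p = 0.168), Ptprc (-0.21, 0.124), Csf1r (-0.13, 0.2), C1qa (0.15, 0.331) and C1qb (0.07, 0.87). Of 3 smooth muscle markers tested, 1 was called lower (Des -0.15, adjusted p = 0.0161, but 0.0679 without si-NC library 1 and 0.0945 without si-DYRK1A library 1), Myh11 and Notch3 were listed at 0, and the summed level was 2290 to 2543 CPM in si-NC and 2134 to 2262 CPM in si-DYRK1A libraries. Des, at 2259 CPM in si-NC and 2031 CPM in si-DYRK1A libraries, made up most of this sum. The other markers tested lay above 0. With covering unannotated transcripts added, Rgs5, named after its values were seen, was called higher (0.56, edgeR adjusted p = 1.16e-05). Kcnj8 (0.29, adjusted p = 0.0584) and Cspg4 (0.13, adjusted p = 0.425) were not called. Of 5 cardiomyocyte markers tested, 3 were called higher (Nppa 0.37, Actn2 0.31 and Actc1 0.13) and 0 lower, where the call of Actc1 was lost without si-NC library 1 (adjusted p = 0.0503), si-DYRK1A library 2 (0.0564) or si-DYRK1A library 3 (0.168). Actc1 (9976 to 10880 CPM) and Nppa (7557 to 9782 CPM) were the most abundant markers of this list. With covering unannotated transcripts added, 3 were not called and lay below 0. They were Myl3 (-0.11, edgeR adjusted p = 0.0879), whose groups did not overlap, Tnnt2 (-0.14, 0.561) and Myl2 (-0.04, 0.915). The part of these cell types in the Egr1 difference was not tested.

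**Figure D4:**
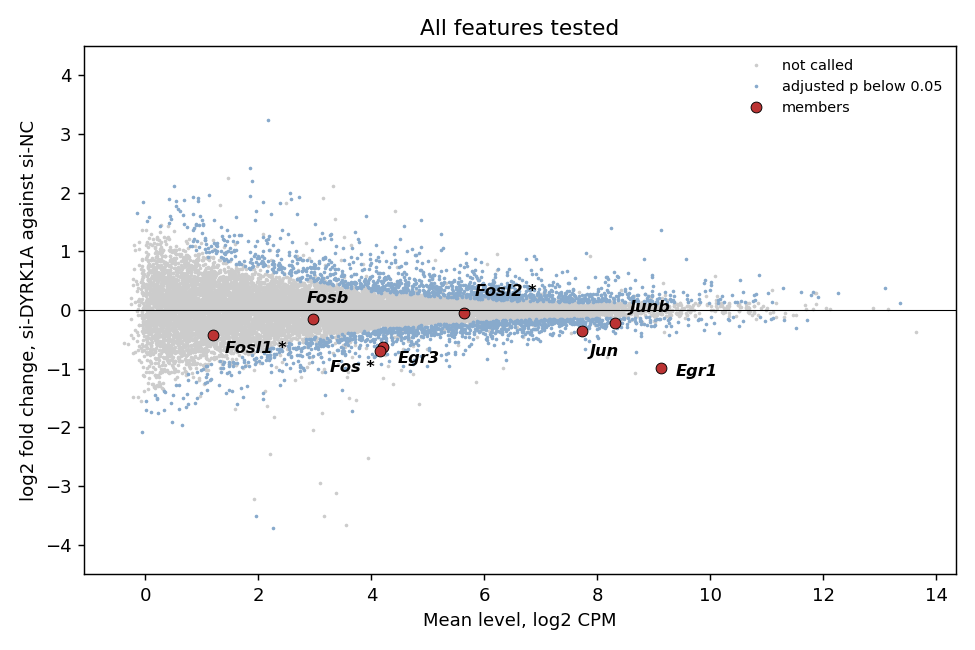
Log2 fold change of si-DYRK1A against si-NC against the mean level (log2 CPM) for all 15513 features tested, with called features in blue and the 8 tested members in red (an asterisk marks an unannotated transcript). Egr1 lies below all other annotated features of at least its level, while Jun, Egr3 and the Fos transcript lie in the lower band of calls and Fosb, Fosl1 and Fosl2 among the features not called.

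The genes whose pattern over the 6 libraries was most like that of Egr1 were found by the root mean square difference of log2 CPM, each centred on its own mean, among 9700 annotated genes. They were Fstl3 (0.0440), Capn6 (0.0461), Hrasls (0.0650), Trib3 (0.0767) and Ass1 (0.0782), and no EGR, FOS or JUN gene was among these 5. Fstl3, a secreted inhibitor of activins, had 58.2, 54.9 and 50.3 CPM in si-NC and 25.9, 29.0 and 29.6 CPM in si-DYRK1A libraries without overlap of the groups. Capn6, a calpain without protease activity, had 42.5, 42.7 and 40.2 CPM in si-NC and 21.2, 21.6 and 21.7 CPM in si-DYRK1A libraries. Trib3, a pseudokinase induced by the integrated stress response, had 106.8, 111.3 and 102.8 CPM and 55.3, 59.9 and 62.7 CPM. The 5 genes had a group difference of about the size of that of Egr1, with log2 fold changes of -0.95 for Fstl3, -0.96 for Capn6, -0.90 for Hrasls, -0.85 for Trib3 and -1.04 for Ass1. This similar size follows from how the genes were picked, by closeness to Egr1 over the same 6 libraries.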

How the data were processed

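Per the labels and the study's methods, mRNA of 3 si-NC and 3 si-DYRK1A cultures was sequenced, and the authors mapped the reads with HISAT2 to Rnor_6.0. They deposited raw counts per gene and FPKM values in separate tables. How the reads were counted (tool, annotation release, strand) is not given in the sources used here. Processing notes of the submitters name Bowtie 0.12.2 and the mouse build mm8, which the rat coordinates of the table contradict. Unannotated transcripts held 17.2% to 17.5% of the counts of each library.

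Deposited counts were scaled by TMM and compared by the two-sided quasi-likelihood test of edgeR 4.0.16 (R 4.3.3, robust, group only, filterByExpr with a minimum count of 10) with Benjamini-Hochberg adjustment over all 15513 features and a threshold of 0.05. Deposited FPKM served to compare levels between genes and, as log2 with a pseudocount of 1 or 0.1, in limma 3.58.1. The depth of 10325074 to 11921772 counts sets the precision, and intervals cover the spread between the libraries compared. Locus sums added unannotated transcripts of the same strand that cover at least 50% of a gene and no other gene. Confidence intervals are for single genes. The other alternatives were RLE normalization, library size only, DESeq2 1.42.0, other filters, the replicate number as a block and each library left out in turn. The scripts were tested on simulated data.

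The members, the lists and the tests were chosen with earlier results of these data known. The genes named were the 10 members, up to 6 called genes with the smallest p in each list, genes named for their role, and the 5 genes most like Egr1. One gene that this rule names is not reported here. Promoters are from RefSeq (GRCr8).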

Additional observations from a re-analysis of the deposited data

How the results depend on the processing

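The count of features called was 2360 and fell to 1571 with DESeq2, to 1199 and 1180 with limma on log2(FPKM + 1) and log2(FPKM + 0.1), and to 591 with log2(FPKM + 1) and no filter. With each library left out in turn it ranged from 1614 to 2210. The count of members called, Egr1 included, was 4 or 5 in all 16 alternatives. Egr1 ranged from -1.03 to -0.94, which describes the gene that was chosen for its difference. Egr3 ranged from -0.72 to -0.55 (highest adjusted p 0.0399), the Fos transcript from -0.79 to -0.60 (0.0460) and Jun from -0.40 to -0.33 (0.0261). None of Egr3, the Fos transcript and Jun lost its call. Junb ranged from -0.27 to -0.13 and was called with DESeq2, with no filter on low counts, with the replicate block and without si-DYRK1A library 2. The Fosl2 transcript ranged from -0.11 to 0.023 with a library left out and reversed to 0.014 without si-NC library 1 and to 0.023 without si-DYRK1A library 1, Nab1 (-0.50 to 0.028) to 0.028 without si-DYRK1A library 2 and Mkl1 (-0.13 to 0.011) to 0.011 without si-NC library 2. With locus sums and a library left out, chosen after seeing the data, Klf2 ranged from -1.80 to -1.64 and Socs3 from -0.90 to -0.75. The count of other immediate early genes called was 24, 18 to 23 with a library left out, and 11 with log2(FPKM + 1) and no filter. Same-numbered libraries did not vary together (correlations of 0.058, -0.026 and -0.0041), so the numbers do not pair them. With the replicate block, 2269 features, 5 members and 23 other immediate early genes were called, Junb gained a call (adjusted p = 0.0201), and Jund (0.0528), Btg2 (0.0618) and Actc1 (0.0604) lost theirs. Over 82 genes and all alternatives, 1136 of 1285 log2 fold changes kept direction and side of the threshold, 141 lost the call, 4 gained one and 4 reversed. DESeq2 gave no adjusted p for Egr4 and the Fosl1 transcript. Of the genes described above, Jund, Srf, Myocd, F3, Tgfb1, Mmp9, Itga5, Actg2, Actb, Spry4, Dusp5, Cdh5 and Des lost their calls in all 3 log2 FPKM fits, Egr4, Wt1, Vcl, Vim, Tie1, Lyz2 and Actc1 in that without a filter, Wt1 and Dusp5 with DESeq2, and Actc1 with library size only. The cause of these changes was not tested. Low counts limit Fosl1 and Egr4 (13 to 39 per library), and Egr2, listed at 0, and Ier2 had no comparison.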
